A study of Mus musculus with 4 samples.

Results

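The Mediator complex was followed through its 32 genes in the RNA of denuded mouse oocytes. The genes were taken by name, as every Med gene with a number and an optional l, together with Cdk8, Cdk19 and Ccnc, and made up 32 of the 26631 genes in the table. Med10, a subunit of the middle module, had no row in the table and so was not analysed. This group of genes was chosen by the measured difference between HDACi 4b and control, because Med29 and Med22 had stood out in earlier results of these data. The difference is therefore given below as a description, the members' calls in the fit over all genes included, and nothing is drawn from it, whereas the levels in the libraries were not used in the choice.

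The libraries were made from cultured ovarian oocytes that had been denuded, that is, stripped of their cumulus cells. The donors were mice of the C57BL/6 background, wild type and aged 24 postnatal days. The treated group received HDACi 4b, an inhibitor of the histone deacetylase HDAC3 that also acts on HDAC1 (2 libraries), and the control group received its solvent DMSO (2 libraries). The oocytes of both groups carried no transgene or deletion, and the dose and hours of treatment of denuded oocytes were not given in the labels. The labels did not say whether the 2 libraries of a group came from separate animals or cultures, so their spread may be technical. The comparison asks whether the inhibitor acts directly on the oocyte transcriptome.

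Mediator is a large complex that carries signals from DNA-bound transcription factors to RNA polymerase II. Its head and middle modules touch the polymerase, its tail binds activators, the subunit encoded by Med14 runs through the complex as a backbone, and a separable module with a cyclin-dependent kinase can dock on it and block the polymerase. Growing oocytes transcribe actively, whereas fully grown oocytes become silent before meiosis resumes and live on stored mRNA, so a level in such cells is a stock of transcript as much as a rate of synthesis.

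The DNA in front of 5 members, picked by level or by the difference, is shown as a description. A link of its motifs to the difference was not tested. Med28, Med27 and Med6 were 3 of the 4 most abundant members, and Med29 and Med22 had the lowest HDACi 4b level relative to control among the members tested. Each stretch comes from the RefSeq window (GRCm38.p6) in front of the start, reads 5′ to 3′ on the strand of the gene and is limited to bases that hold no GENCODE M21 exon of any gene. For Med28, Med27 and Med6 it ends at the base before the RefSeq start, and for Med29 and Med22 it ends at the base before the gene in GENCODE, which begins upstream of the RefSeq start. Capitals mark CCAAT, or ATTGG where it lies on the other strand, and GGGCGG, or CCGCCC on the other strand. The stretches are chr5:45519979-45520228 on the plus strand for Med28, chr2:29346560-29346809 on the plus strand for Med27, chr12:81595009-81595258 on the minus strand for Med6, chr7:28392709-28392940 on the minus strand for Med29 and chr2:26910678-26910763 on the minus strand for Med22.
Med28: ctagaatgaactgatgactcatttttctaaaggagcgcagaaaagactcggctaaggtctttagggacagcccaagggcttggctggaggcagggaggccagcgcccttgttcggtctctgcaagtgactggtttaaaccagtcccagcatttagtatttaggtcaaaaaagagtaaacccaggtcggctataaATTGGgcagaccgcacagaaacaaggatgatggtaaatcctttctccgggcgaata
Med27: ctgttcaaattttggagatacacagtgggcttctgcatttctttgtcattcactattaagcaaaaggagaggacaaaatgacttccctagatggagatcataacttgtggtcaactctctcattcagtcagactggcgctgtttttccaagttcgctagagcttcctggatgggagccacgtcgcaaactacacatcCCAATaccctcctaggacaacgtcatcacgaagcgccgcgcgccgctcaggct
Med6: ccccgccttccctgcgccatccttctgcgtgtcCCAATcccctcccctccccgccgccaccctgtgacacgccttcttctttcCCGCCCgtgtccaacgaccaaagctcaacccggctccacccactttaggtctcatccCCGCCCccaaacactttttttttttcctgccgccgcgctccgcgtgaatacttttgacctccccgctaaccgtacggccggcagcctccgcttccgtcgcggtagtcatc
Med29: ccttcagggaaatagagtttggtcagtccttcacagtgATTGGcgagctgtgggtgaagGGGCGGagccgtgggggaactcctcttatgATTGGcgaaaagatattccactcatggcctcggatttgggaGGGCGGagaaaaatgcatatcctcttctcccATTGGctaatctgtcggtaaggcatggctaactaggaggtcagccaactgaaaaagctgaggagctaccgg
Med22: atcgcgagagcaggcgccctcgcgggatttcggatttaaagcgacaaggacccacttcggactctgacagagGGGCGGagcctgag

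The stretch of Med28 held 1 CCAAT motif and no GGGCGG, and its TATAAA shares its last base with that motif. Med27 likewise held 1 CCAAT motif and no GGGCGG. Med6 held 1 CCAAT motif and 2 GGGCGG motifs, Med29 held 3 and 2, and the 86 bases of Med22 held 0 and 1. The Med22 stretch is short because its start lies head to head with Rpl7a, which encodes a ribosomal protein, on the opposite strand.

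Over RefSeq windows of 300 bases around the start, 27 of the 32 members were matched. CCAAT was present on either strand in 11 of the 27 (40.7%), against 40.8% of the 6444 tested genes with a window and 38% of all 27025 windows. GGGCGG was present in 18 members (66.7%), against 60.4% of tested genes and 35.9% of all windows. TATAAA was found in 3 members (11.1%, against 7.87% and 14.2%), CACGTG in 4 (14.8%, against 9.98% and 7.24%) and ACTTCCG in 5 (18.5%, against 14.6% and 6.59%). The median count of CG dinucleotides was 22 in members, 20 in tested genes and 7 in all windows.

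Within the complex, CCAAT was more frequent among the abundant members. Of the 8 members with a window and a mean of at least 20 RPKM, 7 held CCAAT (87.5%), all but Med11, whereas 4 of the 19 members under that level did so (21.1%), namely Ccnc, Med19, Med29 and Med1. Among tested genes the shares were 43.4% of 1473 genes at or above 20 RPKM and 40% of 4971 genes below it. The 19 members include Med13l, Med12l, Med16 and Med12, which averaged under 1 RPKM, were not tested and held no CCAAT. Med30 and Med8, at 372 and 47.2 RPKM, had no window and are missing from the 8. The line of 20 RPKM was drawn after the values were seen, so the contrast is a description and was not tested.

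The libraries held 14903547 and 14091412 reads with HDACi 4b, against 14143248 and 13478189 reads in control, recovered from the deposited RPKM (RPKM scales reads by exon length and library size), and a count of 3 reads was worth 0.201 to 0.223 CPM. The oocyte label was borne out by 9 of 10 oocyte markers at 1 RPKM or more, with Zp3, a zona pellucida glycoprotein, at the top and Sohlh1 lowest at 0.0551 RPKM. Granulosa and cumulus markers were at 1 RPKM or more in 2 of 11 genes, with summed levels of 5.86 and 4.88 RPKM in HDACi 4b libraries and 4.82 and 6.63 RPKM in control libraries. Macrophage and immune markers were at 1 RPKM or more in 7 of 10 genes, with sums of 131 and 26.7 RPKM in HDACi 4b libraries and 74.1 and 41.2 RPKM in control libraries, so transcripts that mark such cells were found in every library.

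Mediator transcripts were spread over a range of 3865-fold. The median of the 32 members was 5.32 RPKM over the 4 libraries, 27 members reached 1 RPKM, 14 reached 10 RPKM and 5 reached 100 RPKM. Med28 stood highest at 439 RPKM, place 139 of the 26631 genes, and Med12 lowest at 0.114 RPKM. The 4 most abundant members, Med28, Med30, Med27 and Med6, together held 75.5% and 77.6% of all Mediator RPKM in HDACi 4b libraries and 80.1% and 73.8% in control libraries. The plot of levels by module shows the value of each library.

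**Figure D1:**
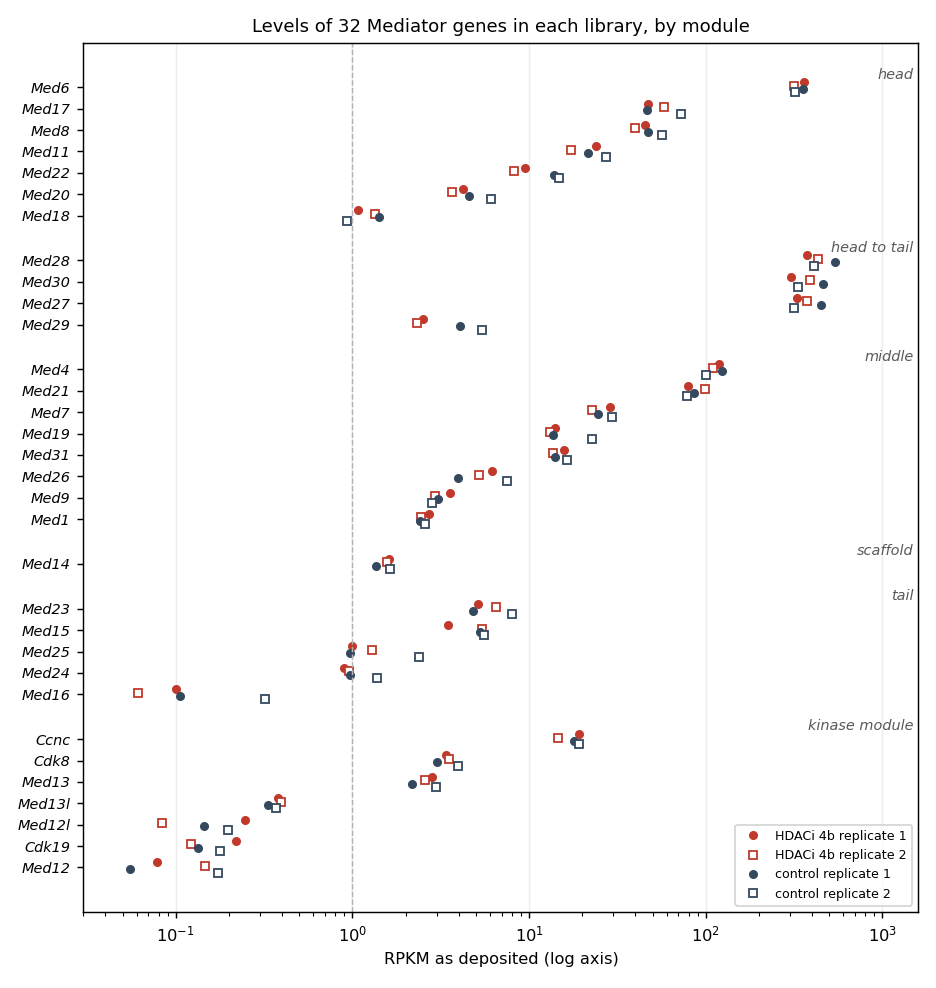
RPKM as deposited (log axis) of the 32 Mediator genes in each of the 4 libraries, grouped by module, with HDACi 4b libraries in red and control libraries in dark blue, and replicate 1 filled and replicate 2 open. Med28, Med30, Med27 and Med6 lie at 303 to 538 RPKM in every library, whereas Med12, Med16, Cdk19 and Med12l reach at most 0.318 RPKM.

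Of the 31 neighbouring pairs in this order, only 8 had ranges over the 4 libraries that did not touch. These gaps fell after Med6, Med4, Med21, Med8, Med22, Med1, Med24 and Med13l. The order within Med28, Med30, Med27 and Med6 was thus not resolved, whereas Med6, at 359 and 318 RPKM in HDACi 4b libraries and 356 and 319 RPKM in control libraries, lay 2.98-fold above Med4 without overlap.

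The head module, which contacts the polymerase and the general transcription factors, had a median of 22.5 RPKM over 7 genes. Med6, a conserved subunit at the border of head and middle, was the highest at 338 RPKM. Med17, the central subunit of the head, had 47.3 and 58.1 RPKM in HDACi 4b libraries and 46.6 and 72.3 RPKM in control libraries. These 2 groups overlapped, control replicate 2 being the highest and control replicate 1 the lowest. Med8, which joins parts of the head, averaged 47.2 RPKM, Med11, the partner of Med22, 22.5 RPKM, and Med22 11.5 RPKM. Med20 and Med18, which form a movable pair in the yeast head, were lower at 4.64 and 1.19 RPKM.

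The subunits between head and tail, most of which have no clear counterpart in budding yeast, had the highest median of any module, 369 RPKM over 4 genes. Med28 had 375 and 433 RPKM in HDACi 4b libraries, against 538 and 409 RPKM in control libraries. Med30 had 303 and 388 RPKM with HDACi 4b, against 462 and 333 RPKM in control. Med27 had 327 and 373 RPKM with HDACi 4b, against 451 and 317 RPKM in control. In each of these 3 genes control replicate 1 was the highest library and the groups overlapped. Med29, the homologue of the fly gene intersex, was the exception in this module at a mean of 3.58 RPKM, based on 257 reads in all.

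The middle module had a median of 15.5 RPKM over 8 genes. Med4 was highest at 114 RPKM, and Med21 and Med7, which form a hinge in the module, were at 85.7 and 26.3 RPKM. Med19 and Med31, further middle subunits, averaged 15.9 and 15.0 RPKM. Med26, which recruits elongation factors, averaged 5.71 RPKM, Med9, the partner of Med4, 3.09 RPKM, and Med1, the docking subunit of nuclear receptors, 2.54 RPKM. Med14, the backbone that links head, middle and tail, had 1.61 and 1.57 RPKM in HDACi 4b libraries and 1.36 and 1.63 RPKM in control libraries. Its mean of 1.54 RPKM was based on 764 reads and lay 285-fold under that of Med28.

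The tail, which binds activators, had a median of 1.41 RPKM over 5 genes and no member at 10 RPKM. Med23 and Med15, which bind activators of growth factor and sterol responses, led with 6.11 and 4.94 RPKM. Med25, the target of a viral activator, and Med24 averaged 1.41 and 1.05 RPKM. Med16 was at the bottom of the tail with 7 and 4 reads in HDACi 4b libraries and 7 and 20 reads in control libraries.

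The kinase module had the lowest median, 0.370 RPKM over 7 genes, and was uneven. Ccnc, which encodes cyclin C, was its only member above 10 RPKM, with 19.1 and 14.5 RPKM in HDACi 4b libraries and 18.0 and 19.1 RPKM in control libraries. The kinase Cdk8 averaged 3.47 RPKM and Med13, which ties the module to the core complex, 2.64 RPKM. Med12, which activates the kinase, was the lowest member of all, with 9 and 16 reads in HDACi 4b libraries and 6 and 18 reads in control libraries. Its 49 reads in all carry an exact Poisson 95% interval of 36.2 to 64.8 reads, which covers counting error only.

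The kinase module has 3 pairs of paralogues, and only in 2 of them did 1 copy lead in every library. Cdk8 was 21.8-fold above Cdk19 (geometric mean over 4 libraries, 15.5 to 29.0) and Med13 was 7.10-fold above Med13l (6.49 to 8.06). Med12 was below Med12l in 3 of 4 libraries and above it in 1 of 4, at ratios of 0.317 to 1.77. Med12l had 47 and 15 reads in HDACi 4b libraries and 26 and 34 reads in control libraries. P2ry12, a gene of macrophages and microglia that shares 9 exonic bases with Med12l on the opposite strand, had 34.2 and 1.98 RPKM in HDACi 4b libraries and 10.2 and 0.874 RPKM in control libraries. The part of macrophage RNA in the Med12l values was not tested.

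Longer genes tended to have lower RPKM within Mediator, with a Spearman coefficient of −0.42 between level and exonic length over 27 tested members, against −0.14 over 9062 tested genes. The points share libraries and the same length enters the RPKM itself, so these are descriptions. Exonic bases were shared with another gene by 17 members, up to 26.3% of Med31, 21.4% of Med20 and 21.2% of Med7. For Med31 the partner, 4930563E22Rik, had at most 0.157 RPKM in a library, whereas those of Med20 (Kpna2-ps) and Med7 (2310031A07Rik) had no value. Reads of partners on the opposite strand cannot be told apart without a known strand setting. For partners on the same strand, such as Gm20517 for Med20, that setting would not tell them apart either.

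HDACi 4b against control left 0 of 9461 tested genes past an adjusted p of 0.05 in limma, a background of 0% in each direction, with 137 genes at an unadjusted p under 0.05 that were higher and 130 that were lower. Among the 27 tested members 0 passed in either direction. The remaining 5 members (Med13l, Med12l, Cdk19, Med16 and Med12) had a mean under 1 RPKM and were not tested. An exact permutation test of 2 against 2 libraries cannot go below p = 0.333. In bulk RNA of this kind, fewer cells of a type and less RNA per cell cannot be told apart.

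The log2 difference (HDACi 4b minus control, on the log2(RPKM + 0.1) scale after scaling of the libraries) was negative in 15 of the 27 members and positive in 12, with a median of −0.04. Over all tested genes 50% were negative and the median was 0.00. On the same scaled values, the median gap among the members was 0.18 between the 2 HDACi 4b replicates and 0.21 between the 2 control replicates on the log2 scale, and the median size of the difference between groups was 0.15. In RPKM as deposited, those medians were 0.20, 0.40 and 0.14. The groups differed by more than both replicate gaps in Med29, Med22, Med20 and Med8 on both scales, which were 4 members as deposited. After scaling Med24 and Med14 joined them, for 6 members in all, of which 5 were lower with HDACi 4b and 1, Med14, was higher. The share of all tested genes that differ in this way was not computed. These counts therefore stand without a background, and nothing is read from them.

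**Figure D2:**
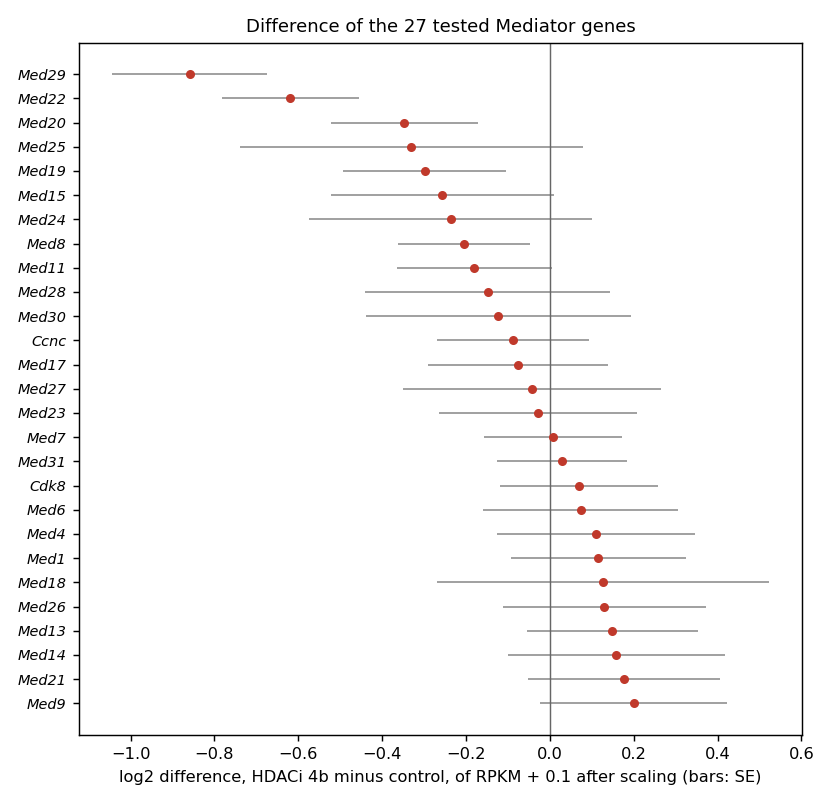
Log2 difference (HDACi 4b minus control) of the 27 tested Mediator genes on the log2(RPKM + 0.1) scale after scaling of the libraries, with bars for the standard error of limma. Med29 at −0.86 and Med22 at −0.62 lie lowest, and the positive differences reach 0.20 in Med9.

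Med29 (chromosome 7, 28386146 to 28392708, minus strand, GRCm38), whose promoter stretch is printed above, had 2.51 and 2.33 RPKM in HDACi 4b libraries, against 4.08 and 5.39 RPKM in control libraries. Both HDACi 4b libraries were lower than both controls, and the means of 2.42 ± 0.133 RPKM with HDACi 4b and 4.74 ± 0.921 RPKM in control (SD, n = 2 each) stood at a ratio of 0.511. The depth behind this was modest, with 48 and 42 reads in HDACi 4b libraries and 74 and 93 reads in control libraries. The log2 difference was −0.86 with a standard error of 0.19.

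Med22 (chromosome 2, 26905262 to 26910677, minus strand) had 9.43 and 8.19 RPKM in HDACi 4b libraries, against 13.8 and 14.7 RPKM in control libraries. The groups did not overlap, and the means of 8.81 ± 0.879 RPKM with HDACi 4b and 14.2 ± 0.683 RPKM in control (SD, n = 2 each) stood at a ratio of 0.619. With 508 and 417 reads in HDACi 4b libraries and 703 and 717 reads in control libraries it was better covered than Med29, and its log2 difference was −0.62 with a standard error of 0.16. Rpl7a, its head to head neighbour, had 32.8 and 38.0 RPKM in HDACi 4b libraries and 40.3 and 37.5 RPKM in control libraries, which overlapped, at a log2 difference of −0.07. Med11, which forms a heterodimer with Med22 in the head module, had 24.0 and 17.2 RPKM in HDACi 4b libraries and 21.6 and 27.1 RPKM in control libraries, which overlapped as well.

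Med20 had 4.21 and 3.66 RPKM in HDACi 4b libraries and 4.57 and 6.10 RPKM in control libraries, with a log2 difference of −0.35 and a standard error of 0.18. Med8 had 45.5 and 39.9 RPKM in HDACi 4b libraries and 47.1 and 56.5 RPKM in control libraries, with a log2 difference of −0.20 and a standard error of 0.16. In both genes HDACi 4b replicate 1 lay close under control replicate 1. Med24 was also without overlap, at 0.894 and 0.957 RPKM with HDACi 4b and 0.975 and 1.39 RPKM in control, on 87 and 88 reads with HDACi 4b and 90 and 122 reads in control.

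**Figure D3:**
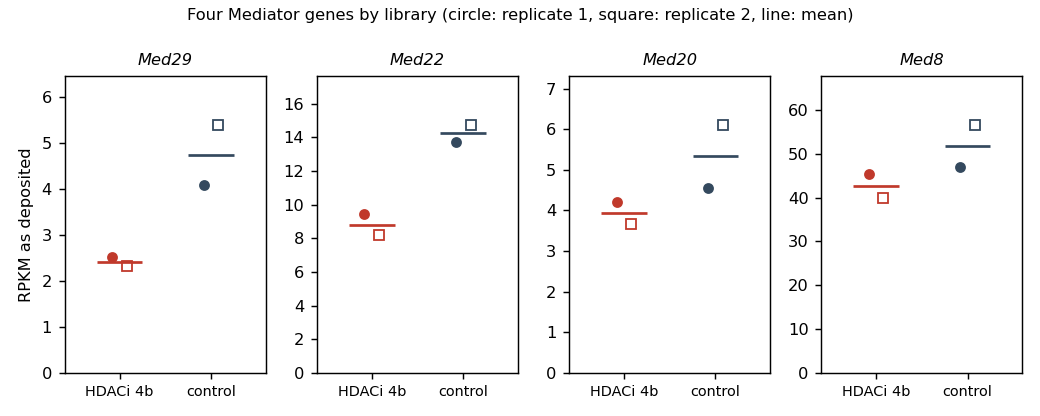
RPKM as deposited of Med29, Med22, Med20 and Med8 in the HDACi 4b and control libraries, with circles for replicate 1, squares for replicate 2 and lines for the group means, each panel with its own axis from 0. In these 4 genes both HDACi 4b libraries lie below both controls, with ratios of the means of 0.511, 0.619, 0.739 and 0.824 in that order.

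Such separation was common in the whole table. Both HDACi 4b libraries lay below both controls in 5 of the 27 members as deposited (18.5%: Med29, Med22, Med20, Med8 and Med24), beside a background of 16.8% of 9461 genes, and above both controls in 0 members, beside 6.6%. After scaling the counts were 6 members below (22.2%, with Med19 added), beside 14.6%, and 2 above (7.41%: Med13 and Med14), beside 13.8%. The members had been chosen with this contrast known, so nothing is read from these counts. The macrophage genes Ccl3 (5.17 and 6.95 RPKM with HDACi 4b, 11.7 and 15.5 RPKM in control) and Cd14 (1.15 and 1.04 RPKM with HDACi 4b, 1.98 and 2.50 RPKM in control) were ordered like Med29 and Med22. They were the 2 negative ones of the 7 tested macrophage and immune markers, the other 5 (C1qa, Lyz2, Csf1r, Cd68 and Cd74) had positive log2 differences, and the summed markers overlapped between groups. The part of such cells in the Mediator differences was not tested.

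By module, the differences were negative in 5 of 7 head members (median −0.18), in 4 of 4 members between head and tail (median −0.14) and in 4 of 4 tested tail members (median −0.25). They were positive in 7 of 8 middle members (median 0.11), in Med14 (0.16) and in 2 of 3 tested kinase module members (median 0.07). Several of these counts changed when a single library was left out. Between head and tail 1 of 4 members was negative without control replicate 1 (median 0.22) and 2 of 4 without HDACi 4b replicate 1 (median 0.049), with Med29 negative in both. In the tail 2 of 4 were negative without HDACi 4b replicate 1 (median −0.0068) and 1 of the 3 still tested without control replicate 2 (median 0.15). In the middle module 4 of 8 were positive without control replicate 2 (median 0.0011). The head kept 4 to 6 negative members of 7 in all 4 fits. In the middle module Med19 was the one negative member at −0.30. It had 14.1 and 13.2 RPKM in HDACi 4b libraries and 13.7 and 22.7 RPKM in control libraries, and its difference was −0.08 without control replicate 2. Med25 likewise had 0.994 and 1.29 RPKM with HDACi 4b and 0.964 and 2.39 RPKM in control, and its difference of −0.33 became 0.15 without control replicate 2.

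The most abundant members moved between libraries of 1 group more than between groups. After scaling, the median deviation of Med28, Med30 and Med27 from their 4-library means was −0.22 and 0.12 on the log2 scale in HDACi 4b libraries and 0.42 and −0.32 in control libraries. The fifth of tested genes with the highest levels deviated by a median of −0.03 and 0.03 in HDACi 4b libraries and 0.08 and −0.09 in control libraries. In that median opposite moves of single genes cancel, so it does not show whether these members moved more than other abundant genes. The difference of Med28, −0.15 with all libraries, was 0.19 without control replicate 1 and −0.49 without control replicate 2. Such a turn was not particular to Mediator. The difference of the oocyte marker Gdf9 was 0.50 without control replicate 1 and −0.34 without control replicate 2. Those of Npm2, Ooep, Zp1 and Zp3 turned sign between these fits too, whereas those of Zp2, Bmp15, Nlrp5 and Figla did not.

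**Figure D4:**
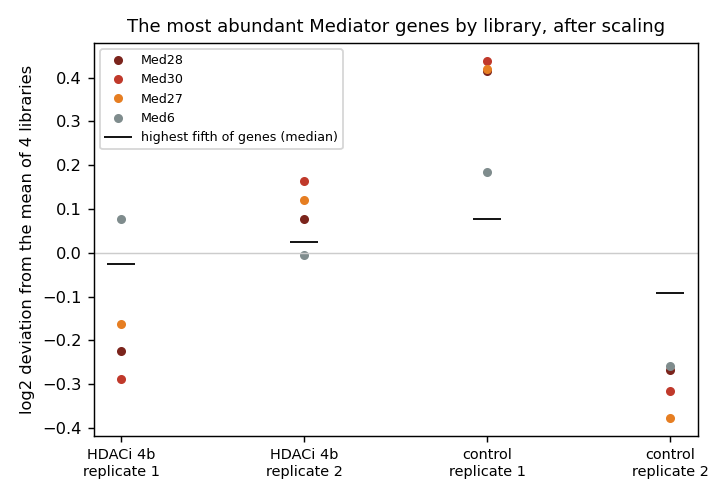
Deviation of Med28, Med30, Med27 and Med6 from their mean over the 4 libraries (log2, after scaling) in each library, with dashes for the median of the fifth of tested genes with the highest levels. The points of Med28, Med30 and Med27 stand at 0.42 to 0.44 in control replicate 1 and at −0.38 to −0.27 in control replicate 2.

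Other genes of RNA polymerase II transcription gave a setting for these levels. The 12 polymerase subunits had a median of 42.6 RPKM, led by Polr2g at 1788 RPKM, Polr2d at 714 RPKM and Polr2j at 325 RPKM. Polr2a, the catalytic subunit, was at the other end with 0.0855 and 0.121 RPKM in HDACi 4b libraries and 0.200 and 0.210 RPKM in control libraries. Both HDACi 4b libraries were lower, an order that 16.8% of the 9461 tested genes also had as deposited. With a mean under 1 RPKM the gene was not tested, and nothing is read from this order. Polr2a was thus listed far below Polr2g, Polr2d and Polr2j. Other subunits lay between, such as Polr2b at 22.6 RPKM and Polr2h at 3.53 RPKM.

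The 21 general factor genes had a median of 16.4 RPKM, with Gtf2e2 (93.1 RPKM), Gtf2f2 (82.5 RPKM) and Gtf2a2 (71.4 RPKM) at the top and the kinase Cdk7 at 37.0 RPKM. Tbpl2, the oocyte form of the TATA-binding protein, averaged 16.4 RPKM and Tbp 5.47 RPKM, and Gtf2a1l, a germ cell form of a TFIIA subunit, averaged 47.0 RPKM and Gtf2a1 19.1 RPKM. The 15 TFIID subunits measured had a median of 10.4 RPKM, with Taf7 (130 RPKM), Taf13 (97.6 RPKM) and Taf8 (63.7 RPKM) on top and Taf4 and the gonadal form Taf4b at 4.45 and 3.18 RPKM. Elongation factors were lowest, with a median of 1.18 RPKM over 21 genes, Supt4a at 40.1 RPKM, Nelfe at 15.9 RPKM, Nelfa at 3.76 RPKM, and the elongation kinase Cdk9 and its cyclin Ccnt1 at 0.367 and 0.525 RPKM. The Mediator median of 5.32 RPKM lay between those of the TFIID subunits and the elongation factors.

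**Figure D5:**
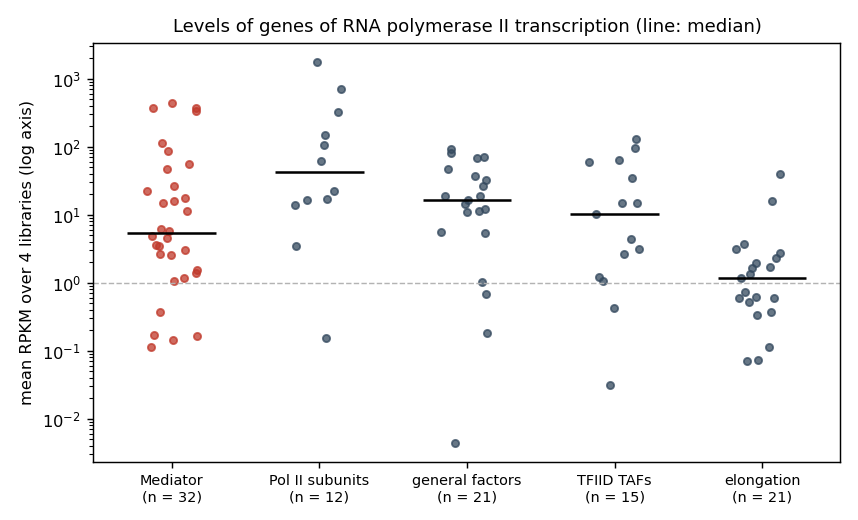
Mean RPKM over the 4 libraries (log axis) of each Mediator gene (red) and of the genes of 4 other lists of RNA polymerase II transcription (dark blue), with a line for each median and a dashed line at 1 RPKM. The medians are 5.32 RPKM for Mediator, 42.6 for polymerase subunits, 16.4 for general factors, 10.4 for TFIID subunits and 1.18 for elongation factors.

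In the comparison of HDACi 4b with control, 0 of the 11 polymerase subunits, 18 general factors, 13 TFIID subunits and 11 elongation factors tested passed in either direction. Negative differences were found in 6, 10, 5 and 4 of them in that order, against 15 of 27 Mediator members. Of the deacetylases that HDACi 4b acts on, Hdac3 had 0.450 and 0.229 RPKM in HDACi 4b libraries and 0.404 and 0.608 RPKM in control libraries, and Hdac1 had 1.15 and 0.989 RPKM in HDACi 4b libraries and 0.636 and 1.08 RPKM in control libraries. Both genes overlapped between groups as deposited, and after scaling both HDACi 4b libraries lay above both controls for Hdac1. After scaling 13.8% of the 9461 tested genes had that order as well, and nothing is read from it. Neither Hdac3 nor Hdac1 reached a mean of 1 RPKM, so they were not tested.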

How the data were processed

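RNA of denuded oocytes was sequenced in 4 libraries, grouped as HDACi 4b or control by the treatment label. The deposited table of 26631 rows holds RPKM, that is, reads scaled by exon length and library size by the authors. No value column was left out (0 unused). Bowtie 0.12.2 and the build mm8 are named in the submitters' processing notes, whereas the tool that counted reads and its use of strand are not given in the sources here. Gene names matched GENCODE M21 (GRCm38) in 93.6% of rows, and 85% gave whole reads at its exonic lengths (tolerance 0.01 reads), from which library totals were recovered. Of the members, 29 gave whole reads at that length and 3 (Med15, Med30 and Med4) at another. Coordinates are those of GENCODE M21, and promoter sequences are from RefSeq.

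The deposited RPKM were divided by a trimmed mean of ratios (30% of ratios and 5% of levels trimmed), giving factors of 1.01 and 0.944 for HDACi 4b and 0.928 and 1.13 for control. log2(RPKM + 0.1) was fitted for the 9461 genes that averaged 1 RPKM or more with limma 3.58.1 in R 4.3.3, with an intensity trend, two-sided and with Benjamini-Hochberg adjustment at 0.05. Levels are RPKM as deposited. Fold changes on the log2(RPKM + 0.1) scale understate the change of low genes. The members and gene lists were chosen with earlier results of these data known. Named were every member, the 3 most abundant genes of each other list of RNA polymerase II transcription and 12 further genes of transcription and deacetylation. Marker genes and overlapping or neighbouring genes were named outside this rule, after their values were seen. Alternatives were other scalings, pseudocounts and filters, the variance prior, a replicate block and the omission of single libraries. Libraries of the same group differed beyond counting error (median chi-square of 2.8 for HDACi 4b and 6.12 for control over 11061 genes), so none was a copy. Intervals and read limits cover counting error only.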

Additional observations from a re-analysis of the deposited data

How the results depend on the processing

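Across the scalings, pseudocounts, filters and variance priors tried, limma called 0 genes in each direction. Leaving out each library in turn gave 0 to 5 genes called higher and 0 to 12 called lower, with 12 lower without HDACi 4b replicate 1, and 5 higher and 10 lower without HDACi 4b replicate 2, and 0 of them were Mediator genes. In such fits the lone library is assumed to vary like the others. The median difference of the members ranged between −0.11 and 0.060 over those fits, with 0.060 without HDACi 4b replicate 1, and 12 to 16 members were negative. The signs of 10 tested members held under every alternative that kept them, with Med29 at −0.93 to −0.68 and Med22 at −0.71 to −0.53, whereas 17 members took another sign under at least 1. Med29 and Med22 did not overlap between the groups after scaling, so leaving out 1 library could hardly turn their signs. The variance priors and low-value filters leave a difference unchanged, so the held signs are no independent check on these chosen genes. Without scaling, 63.2% of all tested genes and 63% of members were negative, and the median of all genes was −0.07. With the replicate block, 0 genes were called higher and 0 lower. In this balanced design such a block leaves every difference as it was, so the members' median of −0.04 and the 15 negative members could not change. The same numbers did not pair the libraries (r = 0.05 across genes between the replicate differences of the groups, from 2 pairs only). By module, the median turned sign without HDACi 4b replicate 1 and without control replicate 1 between head and tail, and without control replicate 2 in the tail. The median of the kinase module turned from 0.07 to −0.0087 with the filter at a mean of 3 RPKM, which kept 2 of its members. In levels, the order of all 32 members was kept after scaling, and 25 kept their place in the control libraries alone, with a Mediator median of 5.59 RPKM there and 5.29 RPKM after scaling. Depth limits Med12, Med16, Cdk19 and Med12l, with at most 47 reads in a library. Their differences were not tested because their means were under 1 RPKM. The same filter left out Med13l, which had 73 to 87 reads in a library. Med18, which was tested, had only 25 to 40 reads in a library, so its difference is limited by depth as well.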
